A study of Mus musculus with 4 samples.

Results

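The 10 genes described here mark the endothelial tip cell, the migrating cell at the front of a vessel sprout, and the chemokine and peptide signals around it. They are Apln, Aplnr, Esm1, Cxcr4, Cxcl12, Ackr3, Pdgfb, Kcne3, Adm and Ramp3. They were chosen by name, and all 10 of 10 were found among the 16181 genes listed at both stages. RNA was sequenced from brain endothelial cells of C57BL/6 mouse embryos at embryonic day 15 (E15) and 18 (E18), in a study of endothelial Ucp2 during the switch from neuron to astrocyte production. One group at each stage was wild type and the other was UCP2f/f;Tie2-cre, in which both copies of Ucp2 are floxed and Cre is driven by the Tie2 promoter, which is active in endothelium and also in most blood cells. Each of the 4 groups held 1 library here, so every ratio below compares a pair of libraries and has no replicate check. The series describes its profiles as triplicates, and whether each library stands for 1 sample or a pool of several is not known here. How the cells were isolated and whether the wild-type embryos carried floxed alleles or Cre are not given in the sources used here.

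In a growing vessel, vascular endothelial growth factor selects tip cells, and Notch signalling holds their neighbours back as stalk cells. Tip cells secrete apelin, endocan (Esm1) and PDGF-B, and carry the receptor CXCR4, while the apelin receptor is found mostly on the cells behind them. CXCL12 guides CXCR4-bearing cells, and the atypical receptor ACKR3 removes CXCL12 from the surroundings. In the embryonic brain this sprouting supplies the vessels that enter from the surface, and it slows as the vessels mature.

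Library totals ran from 15542930 to 21992660 reads in genes, and levels are given as CPM, reads per 1000000 reads of the library total. Where 4 values stand in a row, their order is wild type then knockout at E15, and wild type then knockout at E18. Ucp2 itself, the targeted gene, had 4285, 2666, 6696 and 3296 reads, or 276, 163, 351 and 150 CPM. The knockout library was thus the lower at each stage, but many Ucp2 reads remained in both knockout libraries. The endothelial label was borne out by its markers: 10 of 10 pan-endothelial markers, among them Cdh5 and Pecam1, had reads in every library and summed to between 13923 and 16422 CPM. Markers of other cells were also present. Mural cell markers summed to 6850, 4502, 8729 and 10839 CPM. Microglial and macrophage markers summed to 564, 265, 36.2 and 59.4 CPM, and those of fibroblasts and meninges to 309, 147, 211 and 213 CPM. Fewer cells of a type and less RNA per cell cannot be told apart in such bulk libraries.

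At E15, 2 of the 10 genes were past 2-fold between the knockout and the wild-type library, where 6.87% of all 12633 genes compared were. Esm1 was lower, as 3.32% of all genes were by that margin, and Ackr3 higher, as 3.55% were. At E18, 0 of the 10 were past 2-fold, against 6.8% of 12349 genes, 2.88% higher and 3.92% lower. Between the stages, Cxcl12, Cxcr4, Adm and Ramp3 were higher at E18 in both genotypes, as 13.4% of all genes were with intervals above 0. Such shares depend on read depth, which was high for Cxcl12 and Adm. Cxcl12 and Adm passed the test across all 4 libraries, which called 0.909% of all genes higher. Apln, Aplnr and Esm1 were lower at E18 in both, as 26.1% of all genes were with intervals below 0. With TMM scaling, however, Aplnr in the knockout changed sign (log2 0.02), and Apln in the knockout moved from log2 -0.16 to -0.05. In what follows a log2 ratio is that of CPM with 1 CPM added to each value, which pulls the ratios of weak genes toward 0. Each interval is the exact 95% Clopper-Pearson interval of the ratio of scaled counts without that addition, and covers counting error only.

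Since Cxcl12 and Adm rose together with stage, and Esm1 was lower in both knockout libraries, the 250 bases before the RefSeq start site of these 3 genes (GRCm38.p6, plus strand) were searched on both strands for 4 short motifs. These were ACGTG and GCGTG, the core letters bound by hypoxia-inducible factors, CCGGAA, a core of ETS factor sites, and TGTTTAC, a forkhead core. No match overlapped another in these 3 windows. RefSeq entries matched 8 of the 10 genes, all but Aplnr and Pdgfb, with 9 start sites. Capitals mark the matches, which are all of GCGTG or its reverse complement. The windows are chr6:117168285-117168534, chr7:110627407-110627656 and chr13:113209409-113209658.
Cxcl12: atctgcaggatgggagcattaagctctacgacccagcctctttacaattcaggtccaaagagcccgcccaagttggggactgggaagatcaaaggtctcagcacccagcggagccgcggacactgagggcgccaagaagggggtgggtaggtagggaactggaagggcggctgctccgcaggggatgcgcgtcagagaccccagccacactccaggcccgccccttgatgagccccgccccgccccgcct
Adm: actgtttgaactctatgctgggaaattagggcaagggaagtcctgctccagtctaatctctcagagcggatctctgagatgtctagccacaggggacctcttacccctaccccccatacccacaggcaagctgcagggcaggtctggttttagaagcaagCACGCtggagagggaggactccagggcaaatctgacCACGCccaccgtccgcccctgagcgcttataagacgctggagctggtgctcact
Esm1: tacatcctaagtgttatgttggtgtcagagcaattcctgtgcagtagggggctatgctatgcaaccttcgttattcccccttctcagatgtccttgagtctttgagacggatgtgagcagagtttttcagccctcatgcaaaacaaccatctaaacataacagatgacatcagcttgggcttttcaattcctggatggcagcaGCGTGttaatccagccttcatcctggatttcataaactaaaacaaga

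The Adm window held GCGTG 2 times on the opposite strand, the Esm1 window 1 time on the gene's strand, and the Cxcl12 window none of the 4 motifs. Of all 32851 such windows 28.2% held GCGTG, and 5 of the 9 windows of these genes did. ACGTG was in 1 of 9 against 16.6% of all windows, CCGGAA in 1 of 9 against 12%, and TGTTTAC in 0 of 9 against 3.17%.

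**Figure D1:**
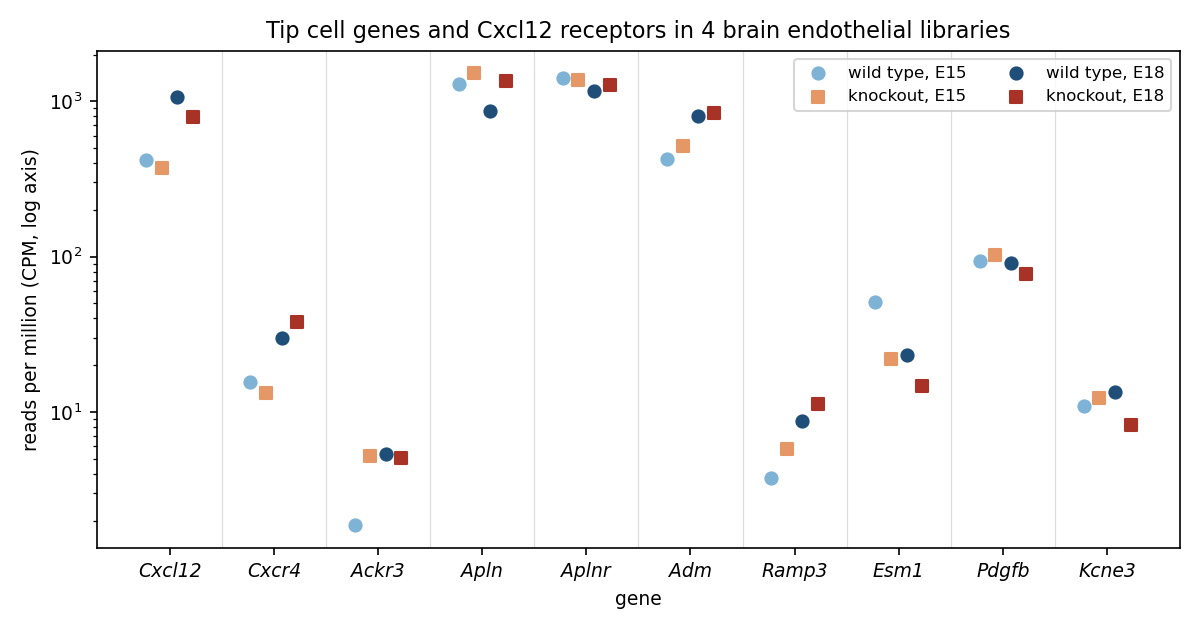
Level of each gene in CPM (log axis) in the wild-type (circles) and knockout (squares) libraries at E15 (light) and E18 (dark), 1 point per library and no error bar because each group held 1 library. Cxcl12, Cxcr4, Adm and Ramp3 lie higher in both E18 libraries than in both E15 libraries, and Esm1 is highest in the wild-type library at E15, at 50.8 CPM.

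Cxcl12 encodes the chemokine CXCL12 (ENSMUSG00000061353, chromosome 6, 117168535 to 117181367). Its reads numbered 6553, 6040, 20447 and 17418, which is 422, 370, 1072 and 792 CPM. Both E18 libraries lay above both E15 libraries, and at each stage the knockout library was the lower. The E18 over E15 log2 ratio was 1.34 in wild type (interval 1.31 to 1.39) and 1.10 in the knockout (interval 1.06 to 1.14). The knockout over wild-type log2 ratio was -0.19 at E15 (interval -0.24 to -0.14) and -0.44 at E18 (interval -0.47 to -0.41). Cxcl12 is also made by meningeal and mural cells. The summed fibroblast and meningeal markers, 6 of 7 of them listed at both stages, did not follow its order over the libraries, with the highest sum at E15 in wild type, although at E15 the knockout sum was the lower as for Cxcl12, and with Dcn and Pdgfra at 0 in at least 1 library. The mural sum, over 10 of 10 markers, was higher at E18 as Cxcl12 was, and at E15 it was lower in the knockout library as Cxcl12 was. At E18 that sum was higher in the knockout library, where Cxcl12 was lower. Most of that sum was Rgs5, at 6910 CPM in wild type and 8764 in the knockout at E18. Of the 9 mural markers measured between genotypes, 8 lay below 0 at E15 (median log2 -0.64). At E18, 5 lay above 0 and 4 below (median log2 0.08). Their part in the Cxcl12 reads was not tested.

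Cxcr4, the signalling receptor of CXCL12 (ENSMUSG00000045382, chromosome 1, 128588199 to 128592293), had 244, 216, 567 and 838 reads. These are 15.7, 13.2, 29.7 and 38.1 CPM, so both E18 libraries again lay above both E15 libraries. The stage ratio was 0.88 on the log2 scale in wild type (interval 0.70 to 1.14) and 1.46 in the knockout (interval 1.31 to 1.75). Between genotypes the ratio was -0.23 at E15, with an interval of -0.52 to 0.02 that holds 0, and 0.35 at E18 (interval 0.20 to 0.51). Microglia and other leukocytes also carry CXCR4, and the sum of their 10 of 10 markers was lower at E18 than at E15. Between genotypes that sum was lower in the knockout library at E15 and higher at E18, the signs of the Cxcr4 ratios. Of these markers, 8 of the 9 measured lay below 0 at E15, and 7 of 8 above 0 at E18. Among them Cx3cr1 had 1416 and 377 reads at E15 and 24 and 46 at E18. Their part in the Cxcr4 reads was not tested.

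Ackr3, the scavenging receptor of CXCL12 (ENSMUSG00000044337, chromosome 1, 90203980 to 90216751), had the lowest level per kilobase of the 10 genes, with 29, 85, 103 and 111 reads. That is 1.87 CPM in the wild-type library at E15 and between 5.05 and 5.40 CPM in the other 3 libraries, so 1 library stood below the rest. The genotype ratio at E15 was 1.11 on the log2 scale (interval 0.86 to 2.14), and 5.27% of genes lay at least as far from 0. At E18 it was -0.08 (interval -0.50 to 0.30), and the libraries were not distinguishable at this depth. With 5 CPM added in place of 1, Ackr3 was no longer past 2-fold at E15.

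Per kilobase of exon, Cxcl12 stood above Cxcr4 and Cxcr4 above Ackr3 in all 4 libraries. Levels per length were 51.6, 8.68 and 0.557 CPM per kilobase for Cxcl12, Cxcr4 and Ackr3 in the wild-type library at E15, and 131, 16.4 and 1.61 at E18. In the knockout libraries they were 45.2, 7.32 and 1.55 at E15 and 96.9, 21.1 and 1.51 at E18. The level of Cxcl12 was 5.94 times that of Cxcr4 per length in the wild-type library at E15 and 7.97 times at E18, against 6.18 and 4.60 times in the knockout. The Cxcr4 level was 15.6 times that of Ackr3 in the wild-type library at E15 but 4.71 times in the knockout library, and 10.2 and 14.0 times at E18.

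Of 25 genes in a CXCL12 pathway list that includes these 3, 22 were measured at E15. Past 2-fold were 2 higher, Ackr3 being 1 of them, and 1 lower, beside 3.55% and 3.32% of all genes. The median log2 ratio was 0.06, beside -0.01 over all genes. The small GTPase gene Rac1, which drives the cell edge forward, had 2411 and 8337 reads (log2 1.71) and the kinase gene Ptk2b 58 and 19 (log2 -1.13). At E18, 21 were measured, with 1 higher and 1 lower, beside 2.88% and 3.92% of all genes. The median there was 0.15, beside 0.00 over all genes. Gnb1, a G protein subunit used by many receptors, had 2663 and 10134 reads (log2 1.72), and the receptor kinase gene Grk3 had 66 and 23 (log2 -1.12). Dpp4, a protease that cuts CXCL12, had 748 and 1072 reads at E15 (log2 0.44, interval 0.31 to 0.58) and 1323 and 1667 at E18 (log2 0.13).

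Apln, the precursor of apelin (ENSMUSG00000037010, chromosome X, 48025146 to 48034853), had 20111, 24700, 16625 and 29787 reads, or 1294, 1513, 872 and 1354 CPM. The knockout library was the higher at each stage, and the wild-type library at E18 was the lowest of the 4. The genotype ratio was 0.23 at E15 (log2, interval 0.20 to 0.25) and 0.64 at E18 (interval 0.61 to 0.66). From E15 to E18 the ratio was -0.57 in wild type and -0.16 in the knockout, both with intervals below 0. The medians over all genes were -0.11 and -0.10. With TMM scaling the Apln stage ratios were -0.45 and -0.05, so the knockout difference depends on the scaling.

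The 2 libraries at E18 also differed in transcripts of the sex chromosomes, and Apln lies on X. Ddx3y, a gene on Y, had 5826 reads there in wild type and 0 in the knockout, and Xist, expressed from an inactive X, 0 and 547. Xist had 2549 and 2109 reads at E15. Genotype and sex cannot be told apart at E18, nor can stage and sex in wild type, whose library held Xist reads at E15 and 0 at E18. Genes on X as a whole had a median genotype ratio of 0.02 at E18 over 423 genes, and 34 of them (8.04%) reached that of Apln. For genes on neither X nor Y the median was 0.00, and 872 of 11920 (7.32%) reached the ratio of Apln.

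Aplnr, the apelin receptor (ENSMUSG00000044338, chromosome 2, 85136225 to 85139923), varied least of the 10 genes, over a range of 0.27 on the log2 scale. Its reads numbered 21990, 22246, 22347 and 28117, or 1415, 1362, 1172 and 1278 CPM. The genotype ratio was -0.05 at E15 (interval -0.08 to -0.03) and 0.13 at E18 (interval 0.10 to 0.15), so its sign differed between the stages. Centred on the pan-endothelial markers the E15 ratio was 0.00057, and the signs no longer differed. These differences are small beside those of most genes: 87.4% of genes at E15 and 72.7% at E18 lay at least as far from 0. Per kilobase, the level of Apln was 1.07, 1.30, 0.874 and 1.24 times that of Aplnr. The wild-type library at E18 was thus the one in which the ligand lay below its receptor.

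Of 15 genes in a list of the apelin pathway, 12 were measured at E15 and 13 at E18. Past 2-fold between genotypes were 1 at E15 and 0 at E18, beside 6.87% and 6.8% of all genes. The 1 was the inhibitory G protein subunit gene Gnai1, with 250 and 862 reads at E15 (log2 1.65, interval 1.51 to 1.92).

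Adm encodes adrenomedullin, a peptide that widens vessels and tightens endothelium and is induced by low oxygen (ENSMUSG00000030790, chromosome 7, 110627661 to 110629820). Its reads numbered 6589, 8417, 15292 and 18616, or 424, 515, 802 and 846 CPM. Both E18 libraries lay above both E15 libraries, and the knockout library was the higher at each stage. The stage ratio was 0.92 in wild type (log2, interval 0.88 to 0.96) and 0.71 in the knockout (interval 0.68 to 0.75). The genotype ratio was 0.28 at E15 (interval 0.24 to 0.33) and 0.08 at E18 (interval 0.05 to 0.11). Among 20 hypoxia-inducible genes, Adm included, 10 of the 16 measured lay above 0 between genotypes at E15 (median 0.07, beside -0.01 over all genes). At E18, 14 of 18 lay below 0 (median -0.18, beside 0.00 over all genes), and Adm did not. The 1 gene of that list past 2-fold between genotypes was Ndrg1, a stress-response gene, lower in the knockout library at E15 (log2 -1.12). Of all genes, 6.87% were past 2-fold at E15 and 6.8% at E18.

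Ramp3 is an accessory protein that gives the receptor Calcrl its affinity for adrenomedullin (ENSMUSG00000041046, chromosome 11, 6658521 to 6677475). It had 58, 95, 168 and 246 reads, or 3.73, 5.82, 8.81 and 11.2 CPM. Like Adm it was higher in both E18 libraries than in both E15 libraries and higher in the knockout library at each stage. The stage ratio was 1.05 in wild type (log2, interval 0.80 to 1.70) and 0.84 in the knockout (interval 0.60 to 1.30). Between genotypes it was 0.53 at E15 (interval 0.15 to 1.14) and 0.31 at E18 (interval 0.06 to 0.64), both imprecise at so few reads.

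The receptor itself and the related accessory protein Ramp2 spanned narrower ranges. Calcrl had 221, 190, 210 and 211 CPM, and Ramp2 386, 424, 369 and 322 CPM. Per kilobase, Ramp2 was 43.2 and 30.4 times Ramp3 at E15 and 17.5 and 12 times at E18, so Ramp2 remained the more abundant partner in each library. The Adm level was 5.78 and 8.19 times that of Calcrl per length at E15 and 11.5 and 12.1 times at E18. Of 15 genes of the adrenomedullin and CGRP list 8 were measured. Past 2-fold between genotypes were 0 at either stage, beside 6.87% of all genes at E15 and 6.8% at E18.

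Esm1 encodes endocan, a secreted proteoglycan that is induced by vascular endothelial growth factor and widely used as a tip cell marker (ENSMUSG00000042379, chromosome 13, 113209659 to 113218098). It had 789, 357, 442 and 323 reads, or 50.8, 21.9, 23.2 and 14.7 CPM. The wild-type library at E15 stood above the other 3, and at each stage the knockout library was the lower. The genotype ratio was -1.18 at E15 (log2, interval -1.40 to -1.03), where 4.49% of genes lay at least as far from 0, and -0.62 at E18 (interval -0.87 to -0.45). Between stages the ratio was -1.10 in wild type (interval -1.30 to -0.96) and -0.54 in the knockout (interval -0.80 to -0.35). With TMM scaling, the scaling factors of edgeR, the stage difference in wild type was no longer past 2-fold.

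Pdgfb encodes the growth factor by which sprouting endothelium recruits pericytes (ENSMUSG00000000489, chromosome 15, 79995900 to 80014808). Its reads numbered 1462, 1664, 1729 and 1688, or 94.1, 102, 90.6 and 76.8 CPM. The knockout library was slightly higher at E15 (log2 0.11, interval 0.01 to 0.22) and lower at E18 (log2 -0.24, interval -0.34 to -0.14). Its receptor gene Pdgfrb, carried by pericytes, had 354 and 204 CPM at E15 and 384 and 426 CPM at E18. Per kilobase the Pdgfb level was therefore 0.350 and 0.656 times that of Pdgfrb at E15, and 0.310 and 0.237 times at E18. Platelets also carry PDGF-B, and the 5 of 6 of their markers listed at both stages summed to 35.2 and 37.2 CPM at E15 and 13.1 and 10.9 CPM at E18, with Gp5 at 0 in the knockout library at E18. Their part in the Pdgfb reads was not tested. Of 10 genes of the PDGF list 8 were measured. Past 2-fold between genotypes were 0 at either stage, beside 6.87% of all genes at E15 and 6.8% at E18.

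Kcne3, an accessory subunit of potassium channels (ENSMUSG00000035165, chromosome 7, 100176502 to 100184869), had 169, 201, 255 and 180 reads. These are 10.9, 12.3, 13.4 and 8.18 CPM, so the wild-type library at E18 was the highest and the knockout library at E18 the lowest. The genotype ratio was 0.16 at E15, with an interval of -0.12 to 0.48 that holds 0, and -0.65 at E18 (interval -0.99 to -0.43). Kcnq1, a channel that Kcne3 can join, had 102, 114, 125 and 144 CPM. Another subunit gene, Kcne1l, had 101 and 19 reads at E18 (log2 -1.76). It was the 1 of 5 measured genes of the KCNE list past 2-fold between genotypes there, beside 6.8% of all genes.

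**Figure D2:**
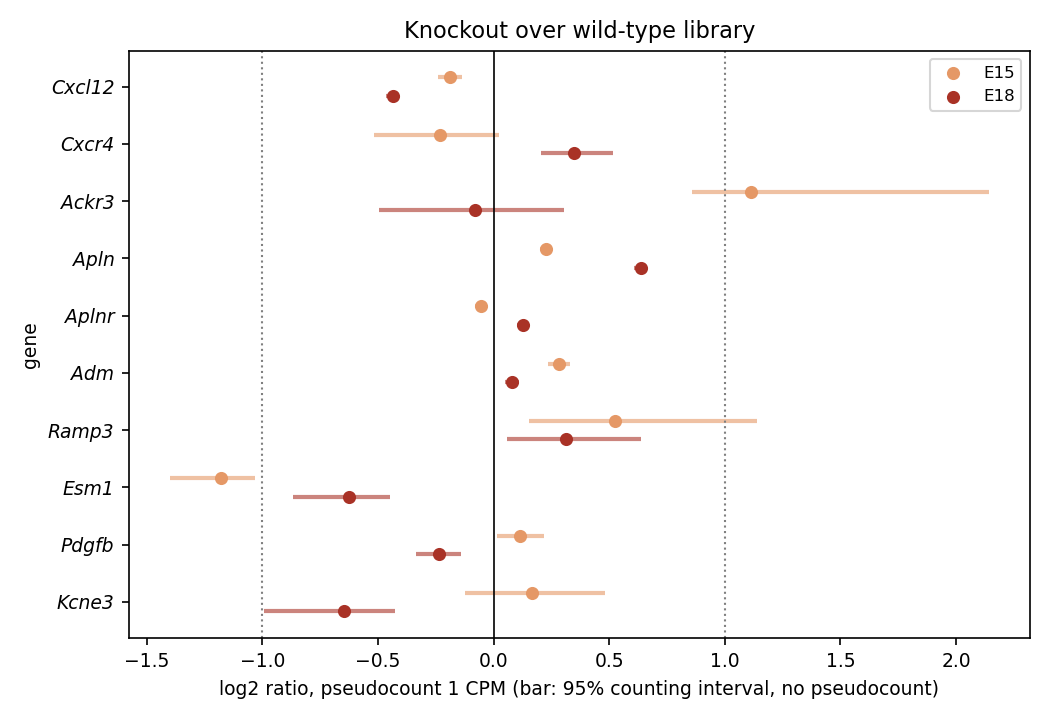
Log2 ratio of the knockout over the wild-type library at E15 (light) and E18 (dark), with 1 CPM added (points), and the 95% counting interval without it (bars), for each gene. Dotted lines mark 2-fold, past which lie Esm1 (-1.18) and Ackr3 (1.11) at E15 and none of the 10 at E18.

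Between genotypes, 5 of the 10 genes had ratios of the same sign at both stages with both intervals off 0, where 21.6% of 11784 genes did. Apln, Adm and Ramp3 were higher and Esm1 and Cxcl12 lower in the knockout libraries. For the other 5 the sign differed between stages, where 48.5% of those genes did so. Counting intervals exclude small ratios at this depth and say little about embryos. They were off 0 for 59.4% of all genes at E15 and 64.4% at E18, beside 8 and 9 of the 10 here. They leave 0 more readily for genes with many reads, and Apln, Adm and Cxcl12 lay above 97.6% of listed genes in each library. The share of 21.6% over all genes is thus not a like comparison for them. The median of the 10 ratios was 0.14 at E15 and 0.00 at E18, and that over all genes -0.01 and 0.00.

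An additive test by edgeR took stage and genotype as terms over all 4 libraries, so that each stage served as the replicate of the other. For genotype, 0 of the 10 genes passed a Benjamini-Hochberg adjusted p of 0.05, 3 had an unadjusted p under 0.05 as did 5.12% of all genes, and DESeq2 also called 0. Of all 13416 genes tested, edgeR called 0.0224%, all of them higher, and DESeq2 0.328%. Esm1 had a log2 change of -0.94 ± 0.25 (SE) with an adjusted p of 0.82 in the edgeR test, Apln one of 0.43 ± 0.13 with 0.86, and Cxcl12 one of -0.31 ± 0.13 with 0.95. Here and for stage below, the SE was back-calculated as the absolute log2 change over the square root of the F statistic. Esm1, Apln and Cxcl12 each had the same direction at 2 of 2 stages.

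**Figure D3:**
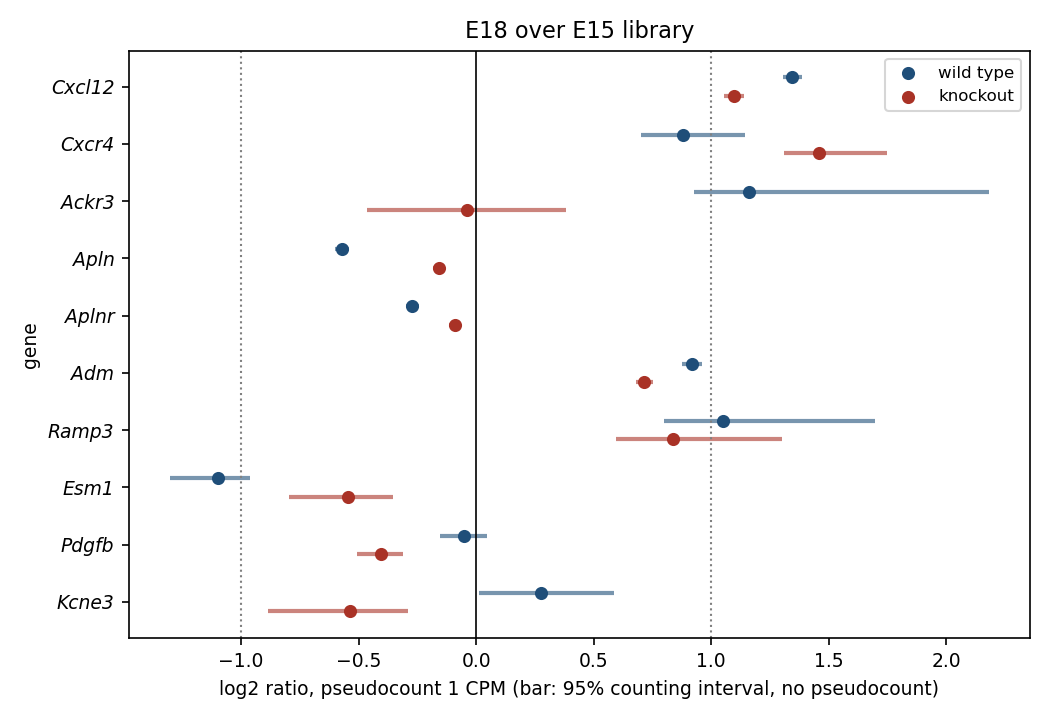
Log2 ratio of the E18 over the E15 library in wild type (blue) and knockout (red), with 1 CPM added (points), and the 95% counting interval without it (bars). Cxcl12, Cxcr4, Adm and Ramp3 lie between 0.71 and 1.46 in both genotypes and Esm1 at -1.10 and -0.54, while the Ackr3 ratio was 1.16 in wild type and -0.04 in the knockout.

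For stage, the same test found that 2 of the 10 genes rose, Cxcl12 and Adm, and 0 fell, where 1.34% of all genes were called, 0.909% higher and 0.432% lower. Those calls were 122 higher and 58 lower, and 53 and 49 with library totals in place of TMM factors. An unadjusted p under 0.05 was found for 5 of the 10 and for 16.7% of all genes. Cxcl12 rose by 1.34 ± 0.13 (SE) on the log2 scale with an edgeR adjusted p of 0.0139, and Adm by 0.94 ± 0.12 with an adjusted p of 0.0253, each higher at E18 in 2 of 2 genotypes. Cxcr4 had a change of equal size to Cxcl12, 1.34 ± 0.26, with an edgeR adjusted p of 0.0622, and over the alternatives run its adjusted p lay between 0.00690 and 0.0933. DESeq2, which called 5.46% of all genes for stage, and edgeR with a filter at 5 CPM called it. Ramp3 (1.21 ± 0.42, edgeR adjusted p 0.20) and Esm1 (-0.74 ± 0.25, edgeR adjusted p 0.20) did not pass. This test has 1 residual degree of freedom, which holds the difference between the genotypes' stage effects, and it does not measure the spread between embryos. To that 1, edgeR added a median of 6.14 prior degrees of freedom, drawn from the variance of all genes.

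Counted by library pairs, 4 of the 10 genes were past 2-fold between stages in wild type, where 10.7% of 12515 genes were, and 2 in the knockout, against 15.3% of 12465. In wild type Cxcl12, Ackr3 and Ramp3 were higher and Esm1 lower at E18, beside 3.08% of all genes higher and 7.58% lower. In the knockout Cxcl12 and Cxcr4 were higher, beside 4.34% higher and 10.9% lower. Cxcl12 was past 2-fold higher in both genotypes, as 1% of 11997 genes were, and 0 of the 10 were past 2-fold lower in both, against 3.1%. Counting intervals lay above 0 in both genotypes for 4 of the 10 against 13.4%, and below 0 in both for 3 against 26.1%. These shares also depend on read depth and are not a like comparison for genes with many reads. In all, intervals were off 0 for 67.5% of genes in wild type and 72.6% in the knockout. With TMM scaling 501 genes were higher and 760 lower in wild type, where library totals gave 386 and 949. Centred on the pan-endothelial markers, Cxcl12 was no longer past 2-fold in the knockout, nor Ramp3 in wild type. All genes had a median stage ratio of -0.11 in wild type and -0.10 in the knockout, a shift that TMM scaling moved to 0.00 and 0.01. Under TMM, Pdgfb in wild type (log2 0.07) and Aplnr and Ackr3 in the knockout (0.02 and 0.06) changed sign. The comparisons of genotype and of stage share their libraries. The low Ackr3 value of the wild-type library at E15, for instance, enters both its genotype ratio at E15 and its stage ratio in wild type.

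**Figure D4:**
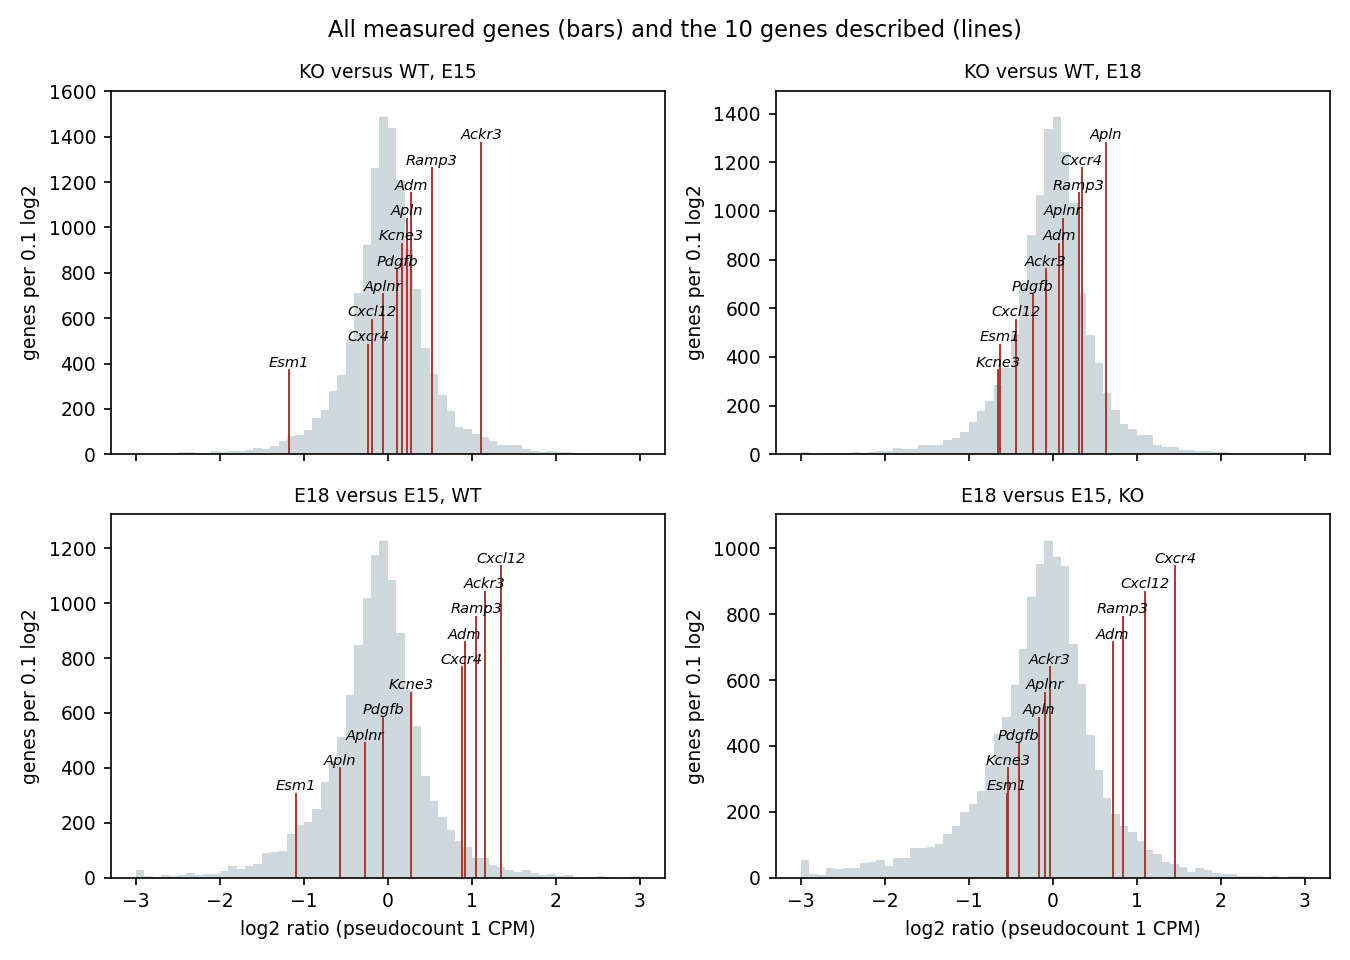
Number of genes per 0.1 log2 of ratio (bars, values beyond 3 in the end bins) with the ratio of each of the 10 genes as a labelled line, whose height only separates the labels. KO stands for knockout and WT for wild type. Between genotypes most lines lie within the bulk of all genes, whereas between stages Cxcl12 lies in the upper tail in both genotypes, at 1.34 and 1.10.

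Ranked per kilobase, the 10 genes kept a broad order. Apln, Aplnr and Adm took the first 3 places in every library, Cxcl12 the next, and Ackr3 the last. Adm was below Apln and Aplnr at E15, at 262 and 318 CPM per kilobase, and above them at E18, at 495 and 523. Esm1 stood just above Pdgfb in wild type at E15 (24.2 and 22.6 CPM per kilobase) and far below it in the knockout at E18 (7.0 and 18.4). Neighbours so close cannot be ranked with 1 library in a group. Together the 10 genes took 3731 and 3921 CPM at E15 and 4088 and 4425 CPM at E18.

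Of 24 other tip cell genes, all measured, 12 lay above and 12 below 0 between genotypes at E15 (median -0.02), and 8 above and 16 below at E18 (median -0.16, beside 0.00 over all genes). The 1 past 2-fold at each stage was the actin-binding protein gene Marcksl1, beside 6.87% of all genes at E15 and 6.8% at E18. It was higher in the knockout libraries, with 3195 and 12327 reads at E15 and 1200 and 3864 at E18. Of the list, Marcksl1 was the only gene called for genotype in the additive test by edgeR (log2 1.68, adjusted p 0.0438). Over 5 alternatives its adjusted p lay between 3.15e-19 and 0.0904, and the call was lost with library totals (0.0698) and without a filter (0.0904). Its stage change was -1.79, so it fell toward E18 while Cxcl12 and Adm rose. The vascular endothelial growth factor receptor gene Kdr had 40225 and 39497 reads at E15 and 64942 and 63205 at E18 (log2 genotype ratios -0.10 and -0.24). The Notch ligand gene Dll4 stood at -0.16 and -0.35, and Angpt2, which loosens vessels, at 0.31 and -0.18. For stage, 1 of the 24 rose and 1 fell, beside 0.909% and 0.432% of all genes. Fscn1, whose product bundles actin in filopodia, rose by 0.81 (edgeR adjusted p 0.0377), and Marcksl1 was the one that fell. The Fscn1 call was lost with library totals (adjusted p 0.0675) and without a filter (0.0639), the lowest over the alternatives being 1.26e-06.

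Among 18 stalk and phalanx genes, 2 were past 2-fold higher in the knockout library at E15 and 0 at E18, beside 3.55% and 2.88% of all genes. The Notch target Hes1 had 1341 and 9076 reads at E15 (log2 2.67) and 807 and 1453 at E18 (log2 0.63), and the decoy receptor gene Flt1 20645 and 47988 at E15 (log2 1.15) and 19524 and 28958 at E18. The list's median was 0.03 at E15 and -0.08 at E18, beside -0.01 and 0.00 over all genes. Of the 7 measured ligand and receptor genes of the vascular endothelial growth factor family, Flt1 alone was past 2-fold between genotypes. It was so at E15, beside 6.87% of all genes, and 0 were at E18, beside 6.8%. For stage, 3 of the 18 rose and 0 fell in the additive test, beside 0.909% and 0.432% of all genes. They were Vwf (log2 1.13, edgeR adjusted p 0.0158), Id1 (1.01, adjusted p 0.0236) and the cadherin gene Cdh5 (0.97, adjusted p 0.0327). The Cdh5 call was lost with library totals (adjusted p 0.0606) and without a filter (0.0528), the lowest over the alternatives being 8.38e-07.

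The 3 of the 10 genes with the widest range over the 4 libraries were Esm1 (1.72 on the log2 scale), Cxcl12 (1.53) and Cxcr4 (1.46). Likeness to them was measured as the root mean square difference of centred log2 levels over the 4 libraries, over genes whose mean reached 10 CPM. The nearest to Esm1 was Ccp110 (0.06), followed by Zfp326 (0.17) and Fchsd2 (0.18), and only 1 gene lay within 0.1 of it. The nearest to Cxcl12 were Sp2, Zfp36 and Bnip3 (0.07, 0.07 and 0.08), and to Cxcr4 Atp1b2, Phf1 and C1qtnf6 (0.03, 0.03 and 0.05). With 4 libraries this likeness is a description only.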

How the data were processed

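The authors deposited raw read counts per Ensembl gene in 1 table per stage, per the file headers, with 19031 genes at E15 and 17344 at E18. Per the submitters' processing notes, which give no roles, TopHat2 2.0.12, Bowtie2 2.2.3, HTSeq 0.6.0 and the build mm9 were used. Of 20143 gene identifiers also in GENCODE M21 (GRCm38), 90.1% had the same start and end in the tables, so the deposited coordinates are taken as GRCm38. No source states whether strand was used in counting. Reads of opposite-strand genes over Esm1 (Gzmk) and Adm (Gm28863), at most 13 and 14 a library, may therefore be shared.

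Genes entered a comparison of 2 libraries with at least 1 CPM in one and 50 reads over both, which all 10 genes met in all 4 comparisons. Past 2-fold was judged with a pseudocount of 1 CPM. Exon lengths came from GENCODE M21. The additive test was edgeR 4.0.16 under R 4.3.3 (glmQLFit, glmQLFTest, TMM, Benjamini-Hochberg) on genes reaching 1 CPM in 2 libraries, with DESeq2 1.42.0 as an alternative. On simulated counts with counting error only, the library comparisons recovered 100% of 200 genes changed 4-fold. The additive genotype test recovered 200 of 200, with 13 false calls among 13416 genes, on simulated counts with some added spread. That spread was below the common dispersion of 0.111 fitted to these data, so the recovery need not hold for them. The 10 genes, the other lists and the motifs were chosen with earlier results of these data known. Named are all 10 genes, their direct partners and, of each other list, at most 4 genes past 2-fold between genotypes. The genes called for stage, Dpp4, Cx3cr1 and those of the sex chromosomes were added after their values were seen.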

Additional observations from a re-analysis of the deposited data

Results flagged for a closer look

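Aplnr and Pdgfb had genotype ratios of opposite sign at the 2 stages, each with a counting interval off 0, as did 18.5% of all 11784 genes compared. For Aplnr the knockout over wild-type log2 ratio was -0.054 at E15 and 0.13 at E18. Centred on the pan-endothelial markers the E15 value was 0.00057, so that the signs no longer differed. For Pdgfb it was 0.11 at E15 and -0.24 at E18. The difference between the stages was not tested, since 1 library per group leaves no residual degree of freedom for it.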

How the results depend on the processing

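With 5 CPM added, 238 genes were past 2-fold between genotypes at E15 (main 868) and 124 at E18 (main 840), and 429 in wild type (main 1335) and 779 in the knockout (main 1904) between stages. Of the 10 genes, 1 then remained at E15 (Esm1) and 1 between stages in wild type (Cxcl12). Without a filter on low counts, 1416 and 1443 genes were past 2-fold between genotypes at E15 and E18, and a filter at 5 CPM left 486 at E18. Centred on pan-endothelial markers, 1 of the 10 (Cxcr4) was past 2-fold between stages in the knockout. The additive genotype test called 3 genes, and 44 by DESeq2, 0 with library totals, 0 without a filter and 29 with a filter at 5 CPM. For stage it called 180, and 732, 102, 92 and 997 in the same order. DESeq2 and the 5 CPM filter each called 3 of the 10 for stage in place of 2. Of 280 single-gene ratios under the alternatives, 7 changed sign, all for Aplnr, Pdgfb or Ackr3. No paired analysis was possible because each group holds 1 library, so no replicate numbers can pair samples beyond the stage term that the additive test already holds. Depth limits Ackr3, Ramp3 and Kcne3 most, and no spread between embryos was measured.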
